A study of Rattus norvegicus with 8 samples.

Results

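The aryl hydrocarbon receptor axis was followed here through 7 genes in H9c2 cells, a line of myoblasts from rat heart, after treatment with oxidized phospholipid. The genes were the receptor Ahr, its partners Arnt and Arnt2, the feedback genes Ahrr and Tiparp, and the cytochromes P450 Cyp1a1 and Cyp1b1. They were chosen by pathway from the 40994 genes of the deposited count table, with the fold changes of the comparison described below already known, so those fold changes are given as a description and not as a test of the axis. All 7 symbols were found, each on a single row, and 6 passed the filter on low counts that left 13206 genes for testing. Cyp1a1 did not pass it.

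The study set 4 samples treated with OxPAPC at 100 µg/ml for 6 h against 4 vehicle samples. The agent is made by oxidizing a phosphatidylcholine that carries palmitic and arachidonic acid, which yields many products. All 8 samples were H9c2 cells with no genetic modification, at passage 6, plated at 75 k cells per well, and 250 ng of RNA per sample was sent for sequencing of messenger RNA. The libraries carry the numbers 2, 9, 16 and 23 for OxPAPC and 1, 8, 15 and 22 for vehicle. The labels do not say that they came from separate cultures, so the spread between them may be partly technical, and 1 line in a dish stands here for cardiac cells.

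The receptor is a transcription factor of the bHLH-PAS family that waits in the cytosol with HSP90 chaperones until a ligand binds, such as dioxin, polycyclic aromatic hydrocarbons or metabolites of tryptophan. It then enters the nucleus, pairs with ARNT and binds the dioxin response element, whose core is GCGTG. Classical targets are CYP1A1 and CYP1B1, enzymes that oxidize the ligands, and AHRR and TIPARP, which hold the receptor back: AHRR competes for ARNT, and TIPARP attaches ADP-ribose to the receptor and marks it for loss. In the heart the receptor is known mainly from studies of dioxin toxicity and of cardiac development.

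The promoters below show where these core letters lie in the receptor gene, which had the largest change of the axis, and in the 3 feedback and target genes that were expressed. Each is the RefSeq window of the assembly GRCr8 from 250 bases before the annotated start to 50 bases after it, read along the gene. Capitals mark the dioxin response element core GCGTG, or its complement CACGC where the core is on the other strand.
Ahr (chr6:57998852-57999151, minus strand): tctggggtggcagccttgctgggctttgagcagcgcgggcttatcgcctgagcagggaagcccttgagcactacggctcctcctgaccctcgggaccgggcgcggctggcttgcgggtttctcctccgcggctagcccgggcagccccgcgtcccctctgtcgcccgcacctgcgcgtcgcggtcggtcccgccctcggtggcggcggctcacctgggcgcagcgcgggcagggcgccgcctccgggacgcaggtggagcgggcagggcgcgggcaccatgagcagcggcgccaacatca
Ahrr (chr1:30821969-30822268, plus strand): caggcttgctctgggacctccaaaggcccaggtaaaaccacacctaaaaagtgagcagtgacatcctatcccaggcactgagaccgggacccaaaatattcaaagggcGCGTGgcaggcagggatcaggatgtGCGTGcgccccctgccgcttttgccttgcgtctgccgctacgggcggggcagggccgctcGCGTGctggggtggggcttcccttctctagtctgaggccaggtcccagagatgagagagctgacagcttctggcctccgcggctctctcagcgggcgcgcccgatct
Tiparp (chr2:152063519-152063818, plus strand): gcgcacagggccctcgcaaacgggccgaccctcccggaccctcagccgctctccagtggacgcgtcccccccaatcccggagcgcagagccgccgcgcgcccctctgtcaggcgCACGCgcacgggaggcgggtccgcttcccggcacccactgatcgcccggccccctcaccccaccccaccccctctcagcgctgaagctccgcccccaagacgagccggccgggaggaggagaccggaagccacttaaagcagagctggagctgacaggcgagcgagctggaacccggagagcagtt
Cyp1b1 (chr6:21094315-21094614, plus strand): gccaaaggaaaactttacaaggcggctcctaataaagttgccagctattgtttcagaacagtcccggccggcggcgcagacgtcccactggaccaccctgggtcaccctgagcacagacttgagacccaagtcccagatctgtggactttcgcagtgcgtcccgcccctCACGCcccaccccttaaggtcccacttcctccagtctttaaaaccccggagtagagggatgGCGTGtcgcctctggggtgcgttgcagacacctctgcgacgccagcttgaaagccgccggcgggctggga

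The window of Ahrr held 3 copies of the core, that of Cyp1b1 held 2, those of Tiparp and Arnt held 1 each, and those of Ahr and Arnt2 held 0. The longer form TNGCGTG, which contains the core, was found once each in the windows of Ahrr and Cyp1b1. For comparison, the core occurred on either strand in 31.1% of 27457 RefSeq windows of this length and in 49.0% of the 10420 windows of tested genes, and the longer form in 5.12% and 7.75% of the same windows. The core of the antioxidant response element, TGACNNNGC, the site of NRF2, was searched on both strands as well. It was found in 2 places in the window of Arnt and in no window of another member, against 12.2% of all windows and 14.3% of those of tested genes. A match shows that these letters occur there and does not show that a factor binds, and elements outside the windows were not searched. Each window is that of the first listed start of its gene, and windows of other starts were not searched.

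**Figure D1:**
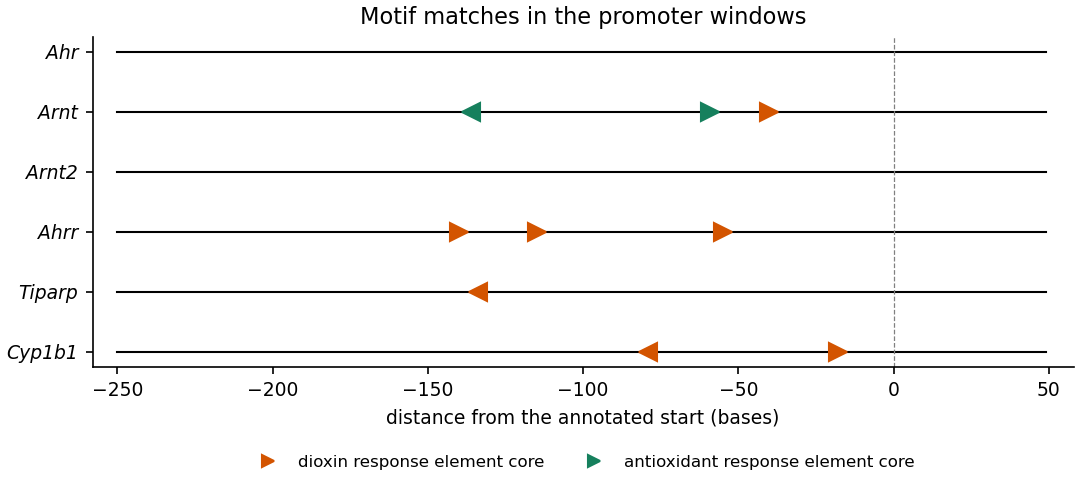
Matches to the dioxin response element core and to the antioxidant response element core in the promoter windows of 6 members; the horizontal axis is the distance in bases from the annotated start, and arrowheads point along the strand of the match. Ahrr has 3 dioxin response element cores and Ahr has 0.

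Total counts were 15.4 to 19.8 M per OxPAPC library and 17.1 to 21.7 M per vehicle library, and all samples share 1 batch date in the labels. Within a group, chi-square per degree of freedom between libraries was 2.23 to 9.50, above the 1 that sampling noise alone gives, and each library was counted as its own sample. Levels are given as CPM, counts per M counts of the scaled library. Of 8 skeletal myoblast markers 5 were tested, with summed levels of 3508 to 3692 CPM in OxPAPC and 3530 to 3635 CPM in vehicle. Most of that was Vim (3270 CPM in OxPAPC and 3185 in vehicle), so the sum says little of the other markers. Myog fell to 40.0 CPM in OxPAPC, against 95.1 CPM in vehicle, Myod1 rose (94.1 CPM in OxPAPC and 85.9 in vehicle), and Cdh15, Des and Vim did not pass. Myf5, Myf6 and Pax7 had at most 27 counts per group. Of 8 cardiomyocyte markers 4 were tested, with summed levels of 122.5 to 130.5 CPM in OxPAPC and 132.9 to 149.2 CPM in vehicle. Most of that was Tnnt2, which fell (113.1 CPM in OxPAPC and 127.8 in vehicle), while Nkx2-5, Gata4 and Actn2 did not pass and Myh6, Myh7, Tnni3 and Ryr2 had at most 23 counts per group. The 5 fibroblast markers summed to 64396 to 69297 CPM in OxPAPC and 67416 to 71213 CPM in vehicle, and 2 of the 4 tested fell (Col1a2 and Thy1). The 4 smooth muscle markers summed to 6164 to 6450 CPM in OxPAPC, below their 7581 to 7816 CPM in vehicle, and 3 fell (Acta2, Tagln and Cnn1). Summed levels of the 4 endothelial, 4 macrophage and 4 hepatocyte markers were at most 2.05 CPM in any library. Cdh5, Kdr, Ptprc, Adgre1 and Alb were at 0 in all libraries, and the macrophage markers Cd68 and Csf1r were tested and did not pass. The part of these markers in the results below was not tested. Fewer cells of a kind and less RNA per cell cannot be told apart in bulk samples.

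Of all 13206 tested genes, 34.3% passed edgeR's quasi-likelihood test at an adjusted p under 0.05, 17.9% as rises and 16.4% as falls. Rises made up 52.3% of the called genes in this fit. Over 18 alternatives in processing that share ran from 40.2% (upper-quartile factors) to 53.1%, and in several of them falls outnumbered rises. Words such as rose and fell are used below only of genes past this threshold. Among the 6 tested members, 2 rose (Ahr and Tiparp), 2 fell (Arnt2 and Cyp1b1) and 2 did not pass (Arnt and Ahrr). Since the members were named with this comparison known, nothing is read from that count.

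Ahr, the gene of the receptor itself (gene 25690, chromosome 6, 52234089 to 52271568 on the minus strand in the deposited coordinates), had the largest change of the axis. It was at 115.0, 106.4, 105.4 and 104.3 CPM in OxPAPC libraries 2, 9, 16 and 23, against 37.0, 31.0, 31.0 and 33.1 CPM in vehicle libraries 1, 8, 15 and 22. Every OxPAPC library lay far above every vehicle library. The coefficient of variation of Ahr was 4.56% in OxPAPC and 8.65% in vehicle, the latter the widest of the tested members in vehicle. These levels rest on 1663 to 2085 counts per OxPAPC library and 546 to 669 counts per vehicle library. The means were 107.8 ± 4.91 CPM in OxPAPC and 33.0 ± 2.85 CPM in vehicle (SD, n = 4 each). The log2 fold change, OxPAPC over vehicle, was 1.71 ± 0.05 (SE), a rise of 3.27-fold.

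That change placed Ahr 34 among 13206 tested genes in the order of log2 fold change, and 99.7% of tested genes changed less in size. The deposited table marks 795 of the tested genes as transcription factors, 53 of them of the bHLH family, and Ahr had the largest log2 fold change in both sets. The AP-1 gene Fosl1 came next at 1.65 ± 0.05 (SE). With limma on log2(FPKM + 1) the order of these neighbours turned, with Fosl1 at 1.55 and Ahr at 1.54. Among the bHLH genes, 14 rose, 7 fell and 32 did not pass, beside 17.9% rises and 16.4% falls over all tested genes. Nothing is read from these counts. The marking leaves out some bHLH-PAS genes, such as Hif1a and Npas3, and includes Rab24, of the RAB family by its symbol. The ranks and counts therefore hold for the marked genes only. The lowest log2 fold changes among the bHLH genes were those of Myog, a factor of muscle differentiation, at −1.25, and of Mycn, at −0.58. No annotated gene overlaps Ahr in the deposited coordinates. The nearest tested genes, Snx13 at 371.8 kb and Tspan13 at 467.2 kb, had log2 fold changes of 0.01 ± 0.04 and 0.05 ± 0.07 (SE) and did not pass (edgeR adjusted p = 0.849 and 0.624).

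**Figure D2:**
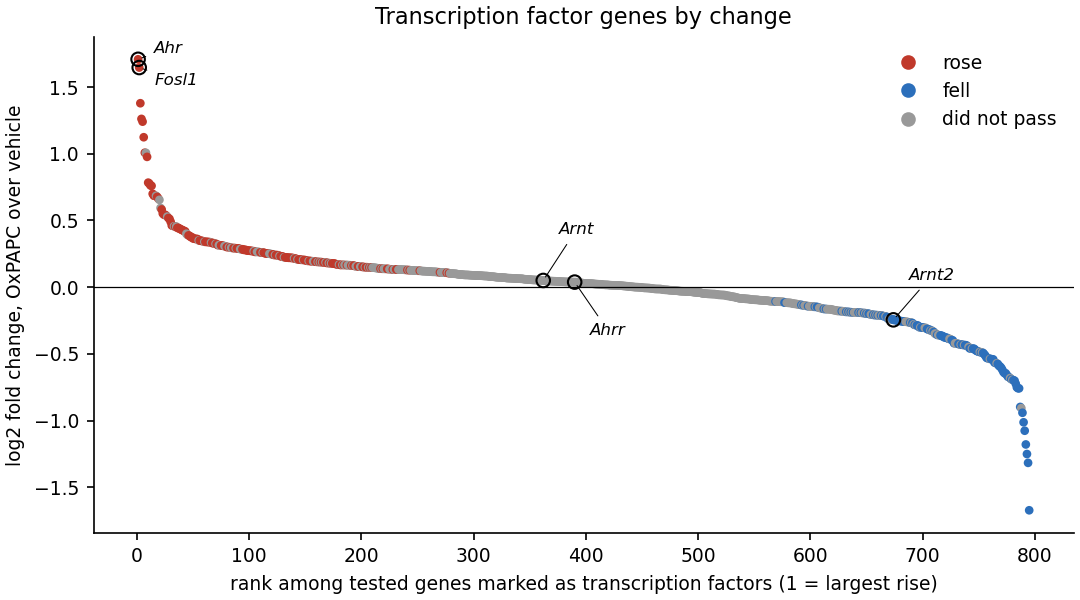
Log2 fold change, OxPAPC over vehicle, of the 795 tested genes marked as transcription factors, ordered from the largest rise on the left; colour gives the call and rings mark named genes. Ahr stands first at 1.71, Arnt and Ahrr lie near 0, and Arnt2 lies among the falls at −0.24.

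Neither partner gene rose. Arnt (gene 25242, chromosome 2, 182997731 to 183056584), the general partner of bHLH-PAS factors, including the hypoxia factor HIF1A, was at 53.5, 49.7, 51.6 and 52.5 CPM in OxPAPC libraries 2, 9, 16 and 23. It was at 48.7, 50.1, 51.3 and 50.0 CPM in vehicle libraries 1, 8, 15 and 22. The groups overlapped, and the log2 fold change of 0.05 ± 0.05 (SE) did not pass.

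Arnt2 (gene 25243, chromosome 1, 138236235 to 138392868, minus strand), a close relative of Arnt best known from the brain, was at 56.0, 50.9, 52.2 and 52.2 CPM in OxPAPC libraries 2, 9, 16 and 23. In vehicle libraries 1, 8, 15 and 22 it was at 65.0, 61.8, 60.7 and 62.7 CPM. All 4 OxPAPC libraries lay below all 4 vehicle libraries, and Arnt2 fell by 0.24 ± 0.05 (SE) on the log2 scale.

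Of the feedback genes, Tiparp rose and Ahrr did not pass. Tiparp (gene 310467, chromosome 2, 149753682 to 149780327), also called PARP7, was at 62.0, 52.3, 54.3 and 55.0 CPM in OxPAPC libraries 2, 9, 16 and 23. It was at 42.6, 46.6, 39.3 and 45.9 CPM in vehicle libraries 1, 8, 15 and 22. The groups did not overlap, although Tiparp had the widest spread of the tested members in OxPAPC, with a coefficient of variation of 7.55% there and 7.72% in vehicle. It rose by 0.36 ± 0.06 (SE) on the log2 scale, or 1.28-fold. A long noncoding RNA gene on the opposite strand (LOC102554278) shares 1117 bases with it and had only 28 counts over OxPAPC and 11 over vehicle libraries, against 3883 and 3215 counts of Tiparp.

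Ahrr (gene 498999, chromosome 1, 28993634 to 29088673), whose promoter window held the most dioxin response element cores, was at 40.3, 41.3, 44.4 and 43.6 CPM in OxPAPC libraries 2, 9, 16 and 23. In vehicle libraries 1, 8, 15 and 22 it was at 38.9, 39.9, 44.6 and 41.8 CPM. The groups overlapped almost fully, and the log2 fold change of 0.04 ± 0.05 (SE) did not pass. A noncoding gene on the opposite strand (LOC108349507) overlaps it by 5467 bases and had 55 counts in all.

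Neither P450 gene rose. Cyp1b1 (gene 25426, chromosome 6, 15342312 to 15350886), which oxidizes polycyclic hydrocarbons, estrogens and fatty acids, was at 302.0, 291.2, 280.0 and 283.7 CPM in OxPAPC libraries 2, 9, 16 and 23. It was at 317.4, 337.5, 311.4 and 324.8 CPM in vehicle libraries 1, 8, 15 and 22. All OxPAPC values lay below all vehicle values by a small margin, and Cyp1b1 fell by 0.16 ± 0.03 (SE) on the log2 scale, to 0.896 of the vehicle level.

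Cyp1a1 (gene 24296, chromosome 8, 58096021 to 58102130), the target most used to read activation of the receptor, was nearly without counts. OxPAPC libraries 2, 9, 16 and 23 had 1, 0, 0 and 1 counts, and vehicle libraries 1, 8, 15 and 22 had 0, 1, 1 and 0. The sum of 2 counts in each group has an exact Poisson 95% interval of 0.242 to 7.22 counts, up to 0.103 CPM in OxPAPC and 0.0983 CPM in vehicle. These intervals cover counting error only. A difference between the groups within these limits was not detectable at this depth. Its relative Cyp1a2 had no count in any library, for which the same exact interval reaches 0.0528 CPM in OxPAPC and 0.0502 CPM in vehicle, and a limit of 3 counts over a group 0.0430 CPM in OxPAPC and 0.0408 CPM in vehicle.

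**Figure D3:**
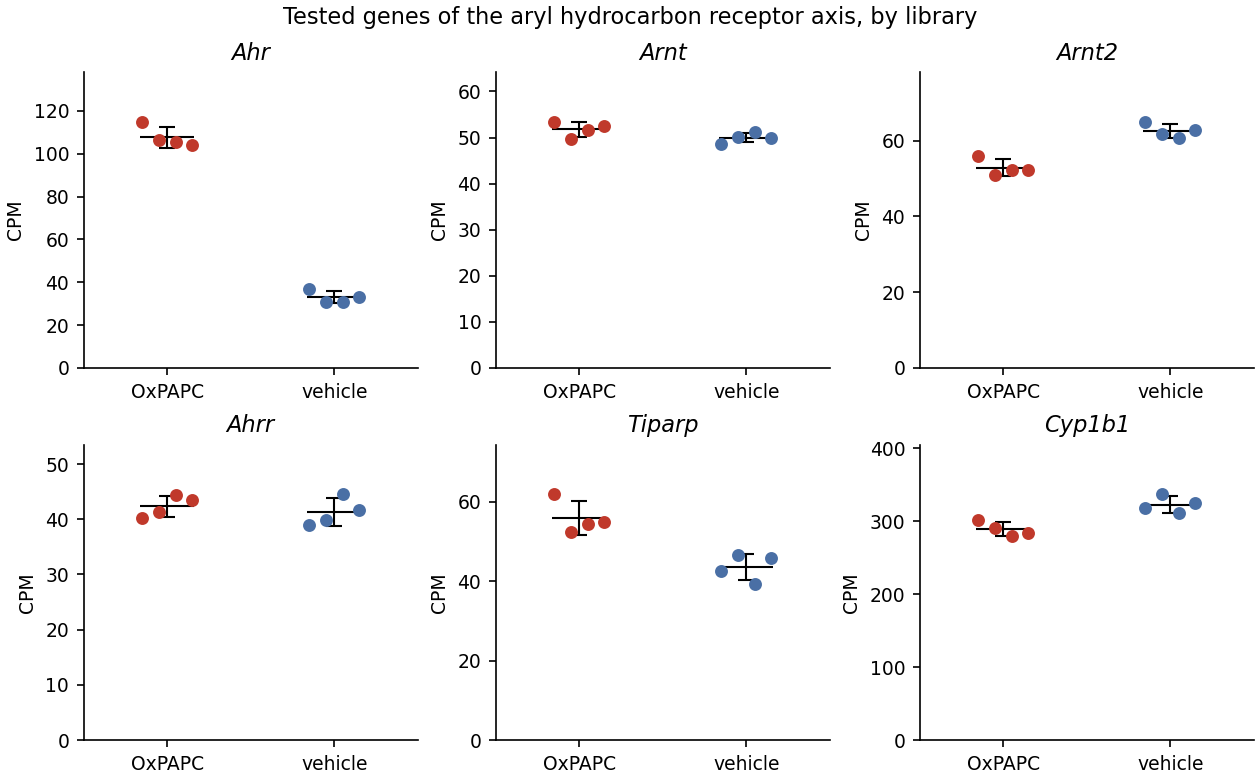
CPM of the 6 tested members in each library (points, OxPAPC left and vehicle right) with the group mean and SD (black, n = 4 each); every axis starts at 0. Ahr separates widely, Tiparp, Arnt2 and Cyp1b1 separate by less, and Arnt and Ahrr overlap.

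Within the OxPAPC group, 5 of the 6 tested members had their highest value in library 2, and the remaining gene, Ahrr, had its lowest there. Library 2 was also the shallowest, at 15.4 M counts, and its part in the pattern was not tested. Without it the log2 fold change was 1.68 for Ahr and 0.30 for Tiparp, and both still passed. In vehicle, library 15 held the lowest CPM of 4 members, among them Tiparp and, by a very narrow margin, Ahr, and the highest of Arnt and Ahrr. By FPKM the lowest Ahr value was in vehicle 8 (5.93, against 5.96 in vehicle 15).

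Levels of different genes were compared per length, on the FPKM scale of the deposited table. In OxPAPC the order was Cyp1b1 (53.5 ± 1.56 FPKM), Ahr (20.3 ± 0.831), Tiparp (13.1 ± 0.938), Arnt (11.6 ± 0.351), Ahrr (8.97 ± 0.438), Arnt2 (7.65 ± 0.293) and, at 0.0108 FPKM, Cyp1a1 (SD, n = 4 each). It was the same in all 4 OxPAPC libraries, and the ranges of neighbours did not overlap. In vehicle the order was Cyp1b1 (60.8 ± 2.02 FPKM), Arnt (11.5 ± 0.271), Tiparp (10.4 ± 0.788), Arnt2 (9.23 ± 0.252), Ahrr (8.91 ± 0.565), Ahr (6.33 ± 0.536) and Cyp1a1 at 0.00970 FPKM (SD, n = 4 each). There Tiparp, Arnt2 and Ahrr overlapped one another in range. Ahr was thus second in level in every OxPAPC library and sixth in every vehicle library.

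The balance of receptor to partner transcripts differed accordingly between the groups. The FPKM of Ahr divided by the summed FPKM of Arnt and Arnt2 was 1.08, 1.08, 1.04 and 1.01 in OxPAPC libraries 2, 9, 16 and 23. It was 0.342, 0.288, 0.287 and 0.306 in vehicle libraries 1, 8, 15 and 22. Receptor transcripts were about level with those of the partners together in OxPAPC and well below them in vehicle. The partner sum itself was 19.3 ± 0.614 FPKM in OxPAPC and 20.7 ± 0.0932 FPKM in vehicle (SD, n = 4 each). Ahr over its repressor Ahrr was 2.27 ± 0.198 in OxPAPC and 0.714 ± 0.0955 in vehicle, and Cyp1b1 over Ahr was 2.64 ± 0.0519 in OxPAPC and 9.66 ± 0.943 in vehicle (SD, n = 4 each). These ratios restate the Ahr change and are given with no test.

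**Figure D4:**
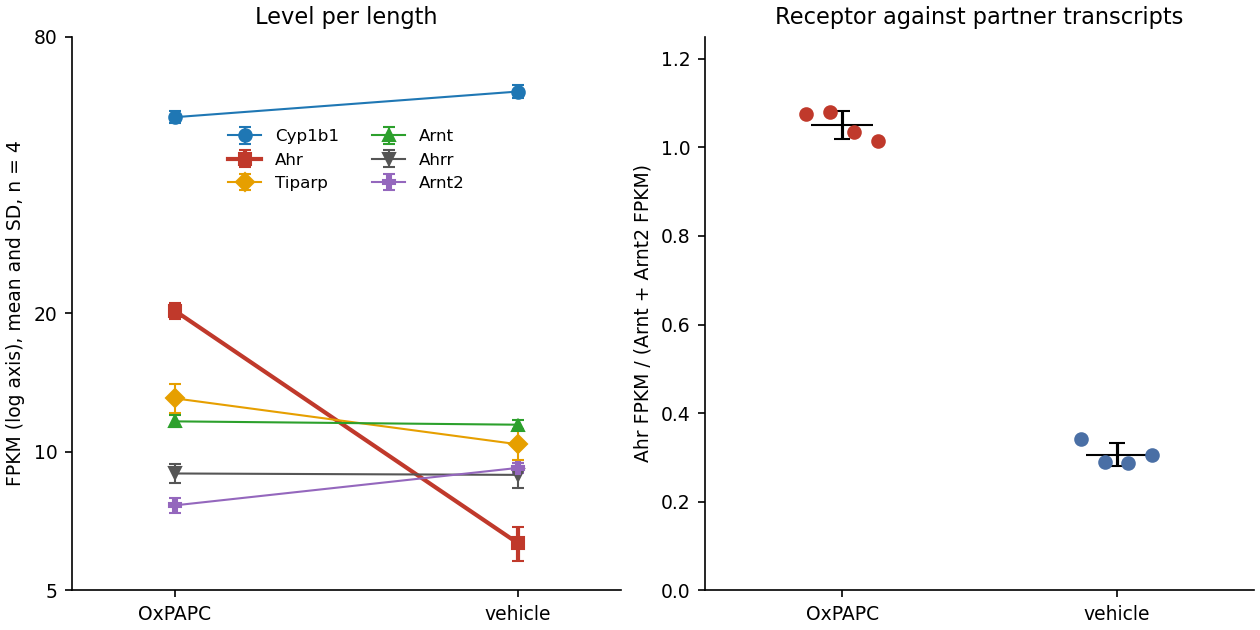
Left, FPKM (log axis, mean and SD, n = 4) of the 6 tested members in OxPAPC and vehicle; right, the ratio of Ahr FPKM to the summed FPKM of Arnt and Arnt2 in each library, with mean and SD. Ahr is second in OxPAPC and sixth in vehicle, and the ratio averages 1.05 in OxPAPC and 0.306 in vehicle.

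The deposited table marks 81 cytochrome P450 genes as protein-coding, among them Cyp3a71-ps, a pseudogene by its symbol. Of these 51 had a count and 14 were tested. By mean FPKM over all libraries Cyp1b1 was second, between the sterol demethylase Cyp51 (94.1 ± 1.47 FPKM in OxPAPC and 92.5 ± 2.83 in vehicle) and Cyp20a1 (44.7 ± 2.02 in OxPAPC and 44.4 ± 1.37 in vehicle; SD, n = 4 each). It held 25.4% of the summed P450 FPKM in OxPAPC and 28.0% in vehicle. Besides Cyp1b1, the retinoic acid hydroxylase gene Cyp26b1 (−0.73 ± 0.16, SE) and the vitamin D 25-hydroxylase gene Cyp2r1 (−0.69 ± 0.18, SE) fell, Cyp2u1 rose (0.24 ± 0.08, SE) and 10 did not pass. These 3 were named after their values were seen. Of all tested genes 34.3% were called, and nothing is read from the counts of P450 genes.

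Other genes of the pathway were read from the same fit in 8 lists of 69 symbols, of which 67 were in the table and 47 were tested. Of these 47, 15 rose, 6 fell and 26 did not pass, so 44.7% were called, against 34.3% of all tested genes. Their median log2 fold change was 0.07, against 0.0022 for all tested genes. Over 18 alternatives in processing, 16 to 22 of the pathway genes were called. The lists were chosen with earlier results of these data known, so nothing is read from these shares and medians.

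Of the 6 genes for the cytosolic complex that holds and turns over the receptor, 4 rose, 1 fell (Stub1, a ubiquitin ligase, −0.17 ± 0.06) and 1 did not pass, with a median log2 fold change of 0.26. The chaperone gene Hsp90ab1 rose, at 2074 ± 33.9 CPM in OxPAPC and 1325 ± 32.7 CPM in vehicle (SD, n = 4 each; log2 fold change 0.65 ± 0.02, edgeR adjusted p = 8.98e-16). Hsp90aa1 rose to 1068 ± 24.5 CPM in OxPAPC, against 708.6 ± 16.5 CPM in vehicle (SD, n = 4 each; 0.59 ± 0.03, edgeR adjusted p = 2.79e-14). Ptges3, which encodes the p23 co-chaperone, rose by 0.38 ± 0.03 and the ubiquitin ligase scaffold Cul4b by 0.13 ± 0.05. Copies of the HSP90 genes may share their reads.

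Of 8 other genes of drug metabolism reported as receptor targets, only Nqo1 and Xdh were expressed enough to test, and both rose. Nqo1, a quinone reductase that is also a target of NRF2, was at 712.1 ± 13.6 CPM in OxPAPC and 146.4 ± 3.62 CPM in vehicle (SD, n = 4 each; 2.28 ± 0.03, edgeR adjusted p = 3.87e-24). Xdh, xanthine dehydrogenase, rose by 0.26 ± 0.04 (edgeR adjusted p = 7.80e-05). Aldh3a1, a classical target in liver and cornea, had 38 counts over OxPAPC and 43 over vehicle libraries. Ugt1a6 had 6 and 2 counts, Gsta2 6 and 0, Cyp2s1 20 and 13, and Abcg2 5 and 3 counts over OxPAPC and vehicle libraries. Of 4 further reported targets, Nfe2l2, which encodes NRF2, rose by 0.20 ± 0.04 (edgeR adjusted p = 0.000246) and the amino acid transporter gene Slc7a5 by 0.22 ± 0.05 (edgeR adjusted p = 0.00110), while Serpinb2 and Ereg were too scarce to test.

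Of 11 genes that make or use tryptophan metabolites, 9 had too few counts to test. The other two did not pass, Il4i1 (−0.21 ± 0.17, edgeR adjusted p = 0.371), whose enzyme makes ligand precursors from aromatic amino acids, and Kyat1 (−0.12 ± 0.10, edgeR adjusted p = 0.410). Ido1 and Tdo2, the enzymes that open the kynurenine pathway, had no count in any library.

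Of 9 tested coregulators of the receptor, 1 rose (Ncoa2, a p160 coactivator, 0.19 ± 0.06, edgeR adjusted p = 0.0183), 1 fell (the corepressor Nrip1, −0.15 ± 0.06) and 7 did not pass. Ncoa2 did not pass without OxPAPC 2 (adjusted p = 0.0763), OxPAPC 16 (0.0594), vehicle 15 (0.0535) or vehicle 22 (0.0766), nor with limma on the FPKM values (0.120 to 0.205), and over 18 alternatives its adjusted p ran from 0.00467 to 0.205.

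Of 9 tested bHLH-PAS relatives 3 rose and 6 did not pass. The clock gene Arntl, which encodes BMAL1, rose by 0.42 ± 0.06 (edgeR adjusted p = 3.66e-06), Hif1a by 0.21 ± 0.04 and Clock by 0.17 ± 0.05. Among the 13 other PARP family genes, relatives of Tiparp, 2 rose (Zc3hav1, 0.27 ± 0.04, and Parp3, 0.13 ± 0.04) and 9 did not pass. Parp2 (−0.38 ± 0.09) and Parp1 (−0.33 ± 0.04, edgeR adjusted p = 1.20e-06) fell. Of 4 electron donors of P450 enzymes, the P450 reductase gene Por rose by 0.41 ± 0.04 (edgeR adjusted p = 4.30e-08), Cyb5r3 (−0.18 ± 0.03) and Cyb5b (−0.15 ± 0.04) fell, and Cyb5a did not pass. Values after ± in the lists are SE of the log2 fold change.

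**Figure D5:**
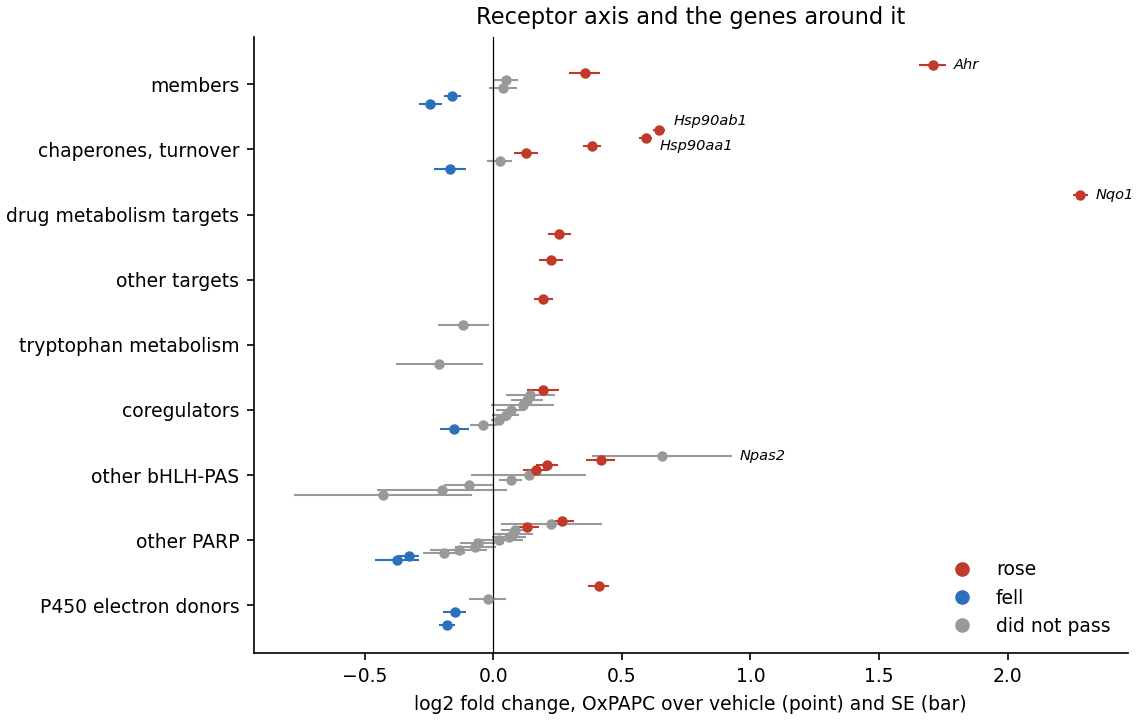
Log2 fold change, OxPAPC over vehicle (points), with SE (bars) for the 6 tested members in the top row and the 47 tested genes of the 8 pathway lists below; colour gives the call, and genes that moved by at least 0.5 are named. Ahr at 1.71 and Nqo1 at 2.28 stand apart from the rest, and Npas2 (0.65) did not pass.

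The genes whose pattern over the 8 libraries was most like that of Ahr were found by Pearson's r of log2 CPM among 9057 tested genes with a mean of at least 10 CPM. They were Hsph1 (r = 0.999), Dnajb1 (0.999), Epb41 (0.998), Anxa7 (0.998) and Hsp90ab1 (0.998). In all, 110 genes had an r of at least 0.99, and these values are a description with no test. All points share libraries and treatment groups. Over deviations from the group means, the same genes had r of 0.890, 0.845, 0.874, 0.780 and 0.759 with Ahr. The genes were picked by r over these same 8 libraries, which raises these values too. The largest upward deviations of Ahr were 0.169 in vehicle 1 and 0.095 in OxPAPC 2, on the log2 scale. The log2 fold changes were 0.68 for Hsph1, 0.43 for Dnajb1, 1.04 for Epb41 and 0.45 for Anxa7, all smaller than that of Ahr.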

How the data were processed

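Messenger RNA of 8 samples was sequenced. The deposited tables hold raw counts and, in a second table, FPKM for 40994 genes in each sample. The submitters' processing notes name featureCounts 1.5.0-p3, HISAT2 2.0.5 and StringTie 1.3.3b without saying what each did. No source used here names the genome build, so coordinates are quoted as the deposited table has them. Chromosome numbers came through gene identifiers from a RefSeq table of GRCr8, which held 91.9% of them. The labels' protocols mention both directional and non-directional libraries and give no strand setting for the counts, so reads of antisense genes may be included. The deposited FPKM equalled count over length and library total, times a factor of 0.987 to 1.02 per library.

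Counts were tested in edgeR 4.0.16 (R 4.3.3), with filterByExpr (at least 10 counts at the median library size in 4 libraries, 15 in total), TMM factors of 0.976 to 1.03 and the robust quasi-likelihood F test of OxPAPC against vehicle in 8 libraries, Benjamini-Hochberg over 13206 genes. CPM are counts per M of the TMM-scaled library. The SE is the absolute log2 fold change over the square root of F. The fit was also run on simulated counts, where not every changed gene was recovered. DESeq2 1.42.0, limma 3.58.1 on log2(FPKM + 1) and log2(FPKM + 0.1), other factors and filters, a block and leaving out each library were alternatives. The members, the 8 lists and the rule for named genes were chosen with earlier results of these data known. That rule named list genes past the test with an absolute log2 fold change of at least 0.5, or else the gene with the smallest p, the 5 genes most like Ahr, the 3 P450 genes of highest FPKM and genes overlapping a member. Other list genes named were chosen after their values were seen, to show each list's spread. Promoters were read from a RefSeq table of GRCr8, which matched 6 of the 7 members (1 window per gene, the first listed). Values of 1 gene of the lists are not reported here.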

Additional observations from a re-analysis of the deposited data

Results flagged for a closer look

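Of 42 groups of 4 values examined (members, named genes of the lists and ratios of members, by group), 1 held a library far from the other 3, and about 1 in 20 would by chance. Hsp90aa1 was at 733.1 CPM in vehicle library 22, against 698.2 to 703.3 CPM in the other vehicle libraries, a gap of 0.855 of the group's range. All OxPAPC libraries lay above it, at 1048 to 1103 CPM.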

How the results depend on the processing

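Over 18 alternatives (RLE or upper-quartile factors, library totals, no filter, at least 1 CPM in 4 libraries, DESeq2, limma on the FPKM values with pseudocounts of 1 and 0.1 and without a filter, a block, and leaving out each library) the 4 called members kept their direction and stayed past the threshold, and Arnt and Ahrr did not pass. The log2 fold change ranged from 1.54 to 1.77 for Ahr (1.68 to 1.77 without single libraries), 0.30 to 0.39 for Tiparp, −0.28 to −0.23 for Arnt2, −0.20 to −0.14 for Cyp1b1, 0.01 to 0.07 for Arnt and 0.00043 to 0.07 for Ahrr. All genes called numbered 3373 to 4664, and pathway genes 16 to 22. With upper-quartile factors 40.2% of called genes were rises, against 52.3% with TMM, while the median over all tested genes shifted to −0.04. The share of rises was 43.2% to 44.1% with limma on the FPKM values, 47.7% with no filter and 48.4% with library totals. Falls thus outnumbered rises in those settings too. Ahr ranked 1 among transcription factors except under limma on log2(FPKM + 1), with and without the filter, where it ranked 2; this rank, the share of rises and the single pathway genes were added to the comparisons after seeing the data. No replicate numbers are shared between the groups, and the labels give no pairing. With neighbouring numbers as a replicate block, 4664 genes were called, against 4533 in the main fit. Deviations of neighbours correlated at −0.0011 to 0.211. By this correlation the neighbouring vehicle library ranked 1 for OxPAPC 2 and 16, and 2 for OxPAPC 9 and 23. Such weak correlations over so few libraries cannot decide whether samples were paired. FPKM and CPM per kb gave the members the same order in each library. Counting error limits Cyp1a1, Cyp1a2 and the other genes of a few counts.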
